A study of Penicillium oxalicum with 6 samples.

Results

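The genes described here are 3 amylase genes of the filamentous fungus *Penicillium oxalicum* and *PoxAmyR*, which encodes their presumed regulator. They were chosen by gene number as the amylase genes that the study followed by RT-qPCR, together with that regulator, and are 4 of the 9834 genes measured. *POX01356* (*Amy15A*) encodes an enzyme of glycoside hydrolase family GH15 with a starch-binding module of family CBM20. *POX09352* (*Amy13A*) encodes an enzyme of family GH13, also with a CBM20 module. *POX02412* is named as an amylase gene by the study with no enzyme family. The primer table gives it the same short name as *Amy15A*, so that it is called by its number here. *POX03890* is *PoxAmyR*.

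The libraries came from the mutant Δ*PoxMKK1* and from the strain in which it was made, Δ*PoxKu70*, with 3 libraries of each labelled F, S and T. In Δ*PoxMKK1* a G418 resistance gene replaces *POX07948*, which encodes the MAP kinase kinase PoxMKK1. Both strains are described as having a hygromycin resistance gene in place of *POX01583*, the homologue of *Ku70*, a replacement made to raise the frequency of gene targeting. Mycelia were moved from glucose to medium with 2% Avicel, a microcrystalline cellulose, and harvested after 24 h at 28 °C and 180 rpm. Where 3 values of a strain are listed, they stand in the order F, S and T. The labels describe the growth for the control strain only. How many independent transformants of the mutant were sequenced is not given in the sources used here, and the complemented strain and mycelia on starch were not analysed here. The stated question of the series is how the kinase affects the transcripts of cellulase and xylanase genes, and the amylase genes belong to another substrate.

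Fungi use starch by secreting several enzymes. α-Amylases of family GH13 cut within the chains, glucoamylases of family GH15 release glucose from the chain ends, and α-glucosidases, many of them in family GH31, split maltose and short chains. CBM20 modules bind starch. In *Aspergillus* the zinc cluster transcription factor AmyR activates the genes of α-amylase, glucoamylase and α-glucosidase when starch or maltose is present, and glucose represses them. Inside the cell, fungi also make and degrade glycogen, a related glucan, with another set of enzymes.

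Each library held 13713826 to 13865205 expected counts in Δ*PoxMKK1* and 13687087 to 14042791 in Δ*PoxKu70*, an expected count being an estimated number of reads. *POX07948* had 2, 1 and 0 counts in Δ*PoxMKK1* and 656, 592 and 753 in Δ*PoxKu70*, as the labels say. *POX01583* had 942 to 1063 counts in Δ*PoxMKK1* and 1092 to 1365 in Δ*PoxKu70*, so reads of the *Ku70* homologue were present in both strains despite the description. Levels are given as FPKM, which is scaled for gene length and for depth. The strains were compared by edgeR's quasi-likelihood test over 8749 genes. A gene was called if it passed 0.05 after Benjamini-Hochberg adjustment and its log2 fold change reached 1 in either direction. By this rule 19.8% of the tested genes were called, 10.8% being higher and 8.93% lower in Δ*PoxMKK1*. The median log2 fold change of all tested genes was 0.01. Of the genes described here, 2 of 4 were called, both of them higher in Δ*PoxMKK1*, and none was lower.

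*Amy15A* was the most abundant amylase transcript in every library, and it was higher in Δ*PoxMKK1*. Its FPKM was 699, 858 and 1125 in Δ*PoxMKK1*, against 156, 152 and 243 in Δ*PoxKu70*. These values rest on 18882 to 30067 counts in Δ*PoxMKK1* and 4113 to 6461 in Δ*PoxKu70*. The groups did not overlap, and the lowest library of Δ*PoxMKK1* was 2.88 times the highest of Δ*PoxKu70*. Without regard to the size of the change, 59.0% of the tested genes had groups that did not overlap, and 35.3% of the tested genes had Δ*PoxMKK1* above, so separation alone is common in these libraries. The mean FPKM was 894 ± 216 in Δ*PoxMKK1* and 184 ± 51.1 in Δ*PoxKu70* (SD, n = 3 each). The log2 fold change was 2.23 (SE 0.25, adjusted p = 0.000567 in edgeR's quasi-likelihood test), which is a 4.68-fold higher level with a 95% interval from 3.08 to 7.10. By mean FPKM the gene ranked 195 of 9834 genes in Δ*PoxMKK1* and 898 in Δ*PoxKu70*. Among the tested genes, 395 had a larger log2 fold change. In bulk mycelium, more cells with a transcript and more transcript per cell cannot be told apart.

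*Amy13A*, the GH13 gene, was also higher in Δ*PoxMKK1*, at a lower level and with more spread between the libraries of a strain. Its FPKM was 78.1, 121 and 169 in Δ*PoxMKK1*, against 25.5, 28.0 and 57.0 in Δ*PoxKu70*. The groups did not overlap, but the gap was narrow, since the lowest library of Δ*PoxMKK1* was 1.37 times the highest of Δ*PoxKu70*. Within a strain the highest library exceeded the lowest 2.17 times in Δ*PoxMKK1* and 2.24 times in Δ*PoxKu70*. The mean was 123 ± 45.7 FPKM in Δ*PoxMKK1* and 36.9 ± 17.5 in Δ*PoxKu70* (SD, n = 3 each). The log2 fold change was 1.68 (SE 0.38, adjusted p = 0.0106 in edgeR's quasi-likelihood test), or 3.21-fold with a 95% interval from 1.72 to 5.98. The call was lost when the adjusted p had to be below 0.01. In rank by mean FPKM the gene stood at 1338 in Δ*PoxMKK1* and at 3571 in Δ*PoxKu70*, and 570 tested genes had a larger log2 fold change.

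*POX02412* was not called, and its libraries overlapped between the strains. Its FPKM was 51.6, 47.5 and 65.3 in Δ*PoxMKK1*, against 51.0, 49.7 and 69.7 in Δ*PoxKu70*. Both strains had replicates F and S close together and replicate T above them. The mean was 54.8 ± 9.30 FPKM in Δ*PoxMKK1* and 56.8 ± 11.2 in Δ*PoxKu70* (SD, n = 3 each). The log2 fold change was -0.11 (SE 0.17, adjusted p = 0.614 in edgeR's quasi-likelihood test), and the 95% interval of the fold was 0.705 to 1.22. These values rest on 1238 to 1690 counts in Δ*PoxMKK1* and 1305 to 1799 in Δ*PoxKu70*. The sign of its small difference depended on 1 library, as the log2 fold change was 0.02 without replicate T of Δ*PoxKu70*.

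*PoxAmyR*, the gene of the presumed activator, was not called either, and it had the lowest mean level and the smallest spread of the 4 in each strain. Its FPKM was 23.7, 24.2 and 25.1 in Δ*PoxMKK1*, against 29.0, 24.0 and 22.5 in Δ*PoxKu70*. All libraries of Δ*PoxMKK1* lay inside the range of Δ*PoxKu70*. The mean was 24.3 ± 0.681 FPKM in Δ*PoxMKK1* and 25.2 ± 3.42 in Δ*PoxKu70* (SD, n = 3 each), resting on 602 to 629 counts in Δ*PoxMKK1* and 563 to 745 in Δ*PoxKu70*. The log2 fold change was -0.11 (SE 0.12, adjusted p = 0.475 in edgeR's quasi-likelihood test). Its 95% interval runs in fold from 0.758 to 1.13, and so leaves out rises as large as the 4.68-fold and 3.21-fold of *Amy15A* and *Amy13A*. The sign rested on 1 library here too, with a log2 fold change of 0.01 without replicate F of Δ*PoxKu70*. The transcript level says nothing of the amount or the activity of the protein.

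**Figure D1:**
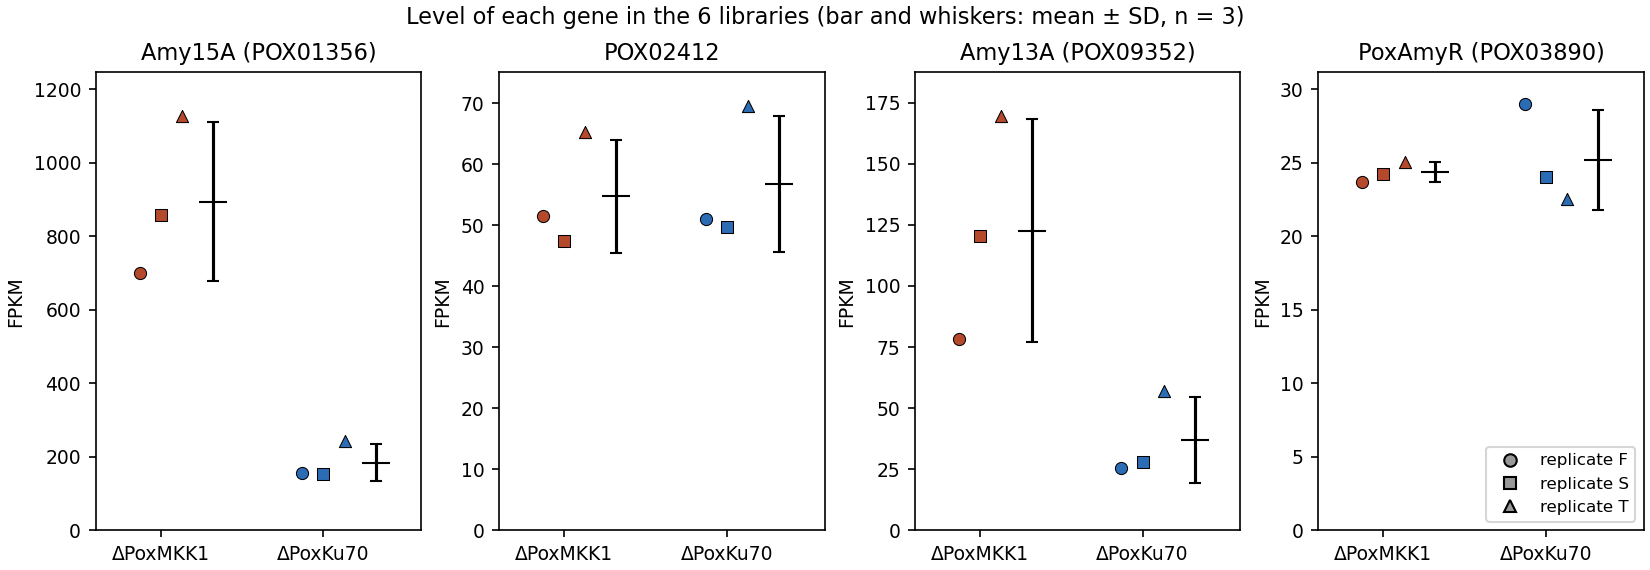
FPKM of each gene (vertical axis from 0, a separate scale for each gene) in the libraries of Δ*PoxMKK1* (left, red) and Δ*PoxKu70* (right, blue), with the symbol giving the replicate and the bar with whiskers the mean ± SD (n = 3). The libraries of Δ*PoxMKK1* stand above all those of Δ*PoxKu70* for *Amy15A* and *Amy13A*, and the strains overlap for *POX02412* and *PoxAmyR*.

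The order of the genes by level differed between the strains. In Δ*PoxMKK1* it was *Amy15A* (699 to 1125 FPKM), *Amy13A* (78.1 to 169), *POX02412* (47.5 to 65.3) and *PoxAmyR* (23.7 to 25.1), and the range of no gene reached that of its neighbour. In Δ*PoxKu70* the order was *Amy15A* (152 to 243 FPKM), *POX02412* (49.7 to 69.7), *Amy13A* (25.5 to 57.0) and *PoxAmyR* (22.5 to 29.0). There *Amy13A* could not be set apart by its spread from *POX02412* above it or from *PoxAmyR* below it. *Amy13A* thus lay above *POX02412* in all libraries of Δ*PoxMKK1* and below it in all libraries of Δ*PoxKu70*. The ratio of *POX02412* to *Amy13A* FPKM was 0.661, 0.394 and 0.385 in Δ*PoxMKK1*, against 2.00, 1.77 and 1.22 in Δ*PoxKu70*.

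Summed over the 3 amylase genes, FPKM was 829, 1026 and 1360 in Δ*PoxMKK1*, against 233, 230 and 369 in Δ*PoxKu70*. Most of the sum was *Amy15A* in both strains, which held 83.6 ± 0.80% of it in Δ*PoxMKK1* but 66.3 ± 0.75% in Δ*PoxKu70* (SD, n = 3 each). Although the sum varied between replicates, this share varied little, from 82.7 to 84.3% in Δ*PoxMKK1* and from 65.7 to 67.2% in Δ*PoxKu70*. The share of *POX02412* was 5.22 ± 0.88% in Δ*PoxMKK1* but 20.8 ± 1.68% in Δ*PoxKu70* (SD, n = 3 each). That of *Amy13A* was 11.2 ± 1.59% in Δ*PoxMKK1* and 12.9 ± 2.32% in Δ*PoxKu70* (SD, n = 3 each), and it overlapped between the strains. A two-sided exact permutation test gave p = 0.1 for the shares of *Amy15A* and *POX02412*, which is the smallest p that 3 against 3 libraries allow, and p = 0.5 for that of *Amy13A*. After Benjamini-Hochberg adjustment over the 3 shares these exact p-values were 0.15 for *Amy15A* and *POX02412* and 0.5 for *Amy13A*. In each library of Δ*PoxMKK1* the sum was thus weighted further towards *Amy15A* than in any of Δ*PoxKu70*. The shares are parts of one whole, so they are not independent results. The lower share of *POX02412* is not a lower level, as its own mean FPKM was 54.8 in Δ*PoxMKK1* and 56.8 in Δ*PoxKu70*.

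To compare the changes of the genes within libraries, their FPKM was divided in each library, which leaves out the depth of the library. *Amy15A* over *PoxAmyR* gave 29.5, 35.4 and 44.9 in Δ*PoxMKK1*, against 5.39, 6.33 and 10.8 in Δ*PoxKu70*. *Amy13A* over *PoxAmyR* gave 3.29, 4.97 and 6.76 in Δ*PoxMKK1* and 0.878, 1.17 and 2.53 in Δ*PoxKu70*. The strains were separate in both ratios, whose log2 difference was 2.33 for *Amy15A* (5.03-fold) and 1.80 for *Amy13A* (3.49-fold). *POX02412* over *PoxAmyR* gave 2.18, 1.96 and 2.60 in Δ*PoxMKK1* and 1.76, 2.07 and 3.09 in Δ*PoxKu70*, with a log2 difference of -0.01 and overlapping strains. Its sign depended on single libraries, since the log2 difference was 0.01 and 0.09 without replicates F and S of Δ*PoxMKK1* and 0.23 with replicate T of Δ*PoxKu70* left out. The amylase genes thus differed in whether their ratio to the regulator separated the strains.

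The amylase genes also differed from each other in their change. *Amy15A* over *POX02412* was 13.5, 18.1 and 17.2 in Δ*PoxMKK1*, against 3.07, 3.06 and 3.48 in Δ*PoxKu70*, a log2 difference of 2.34. In Δ*PoxKu70* that ratio was nearly constant, and both genes had their highest level in replicate T. *Amy15A* over *Amy13A* was 8.95, 7.11 and 6.64 in Δ*PoxMKK1* and 6.13, 5.42 and 4.25 in Δ*PoxKu70*. The strains were separate here too, but by little, with a log2 difference of 0.53 (1.44-fold). Of the 6 pairs of genes compared, all but *POX02412* with *PoxAmyR* gave p = 0.1 in a two-sided exact permutation test, the smallest possible, and 0.12 after Benjamini-Hochberg adjustment over the 6 pairs. The remaining pair gave p = 1.0 in the same exact test. This exact test cannot go below 0.1 with 3 libraries a strain, so its p does not grade the separate ratios. Each separate ratio holds *Amy15A* or *Amy13A*, whose own FPKM did not overlap between the strains, so these pairs are not further independent results. How common separate ratios are over all pairs of genes was not counted.

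**Figure D2:**
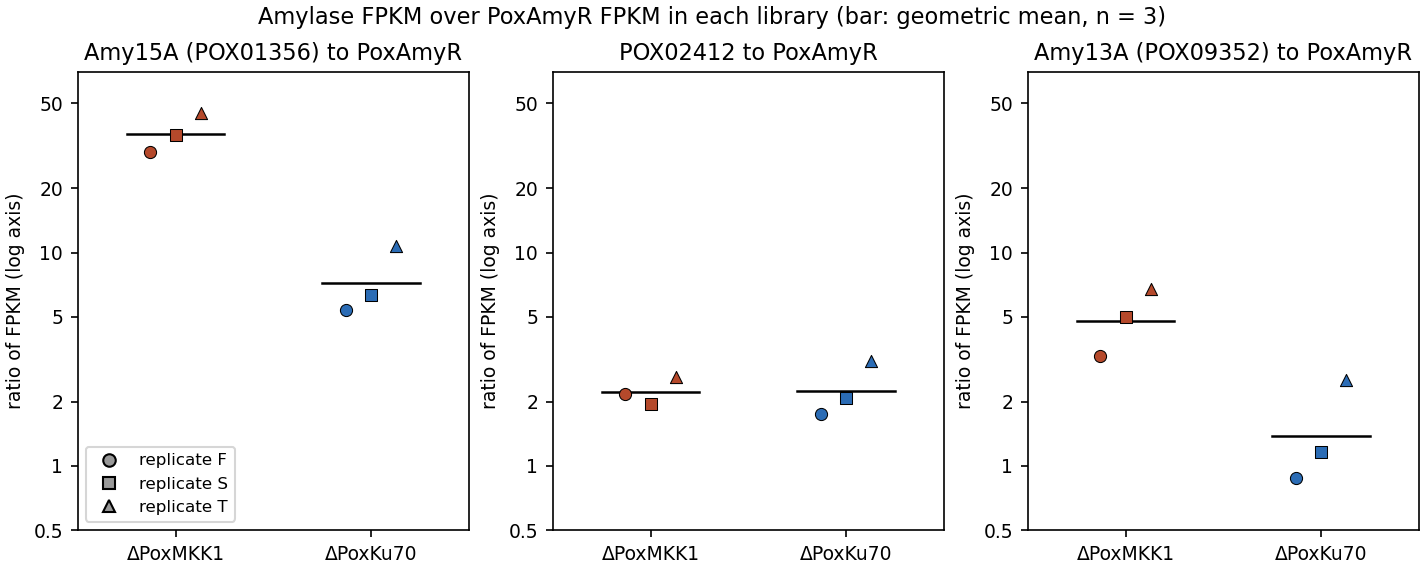
FPKM of each amylase gene divided by that of *PoxAmyR* in the same library (vertical log axis), for Δ*PoxMKK1* (left, red) and Δ*PoxKu70* (right, blue), with symbols for the replicates and a bar at the geometric mean (n = 3). The ratio is 29.5 to 44.9 against 5.39 to 10.8 for *Amy15A* and 3.29 to 6.76 against 0.878 to 2.53 for *Amy13A*, and the strains overlap for *POX02412*.

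The replicates shared a pattern in the amylase genes, which was not particular to them. Replicate T was the highest library of its strain for all 3 amylase genes in both strains. *POX03889*, a gene of family GH31 described below, was also highest in replicate T, at 59.4 FPKM in Δ*PoxMKK1* and 25.1 in Δ*PoxKu70*. How many of all genes share this order was not counted. The deviations of replicate T are given next for the amylase genes. Its deviation from the strain mean on the log2 scale was 0.36 in Δ*PoxMKK1* and 0.44 in Δ*PoxKu70* for *Amy15A*. For *POX02412* it was 0.27 in Δ*PoxMKK1* and 0.31 in Δ*PoxKu70*, and for *Amy13A* 0.54 in Δ*PoxMKK1* and 0.73 in Δ*PoxKu70*. *PoxAmyR* did not share this, with 0.04 in replicate T of Δ*PoxMKK1* and -0.15 in replicate T of Δ*PoxKu70*, the lowest library of that strain. The within-strain SD of log2 FPKM, without a pseudocount, was 0.36 for *Amy15A*, 0.25 for *POX02412*, 0.60 for *Amy13A* and 0.14 for *PoxAmyR*. The median of this SD was 0.18 over the 8700 tested genes with an FPKM above 0 in every library. Of these genes, 94.3% varied less than *Amy13A* and 35.3% less than *PoxAmyR*. What the replicate letters stand for is not stated in the labels.

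Relative to actin, the internal standard of the study's RT-qPCR, the genes fell into the same groups. That RT-qPCR of the amylase genes and *PoxAmyR* was done on soluble starch, not on Avicel, so these values do not repeat it. On starch the study reported the amylase transcripts of the mutant as higher early and lower later, and *PoxAmyR* as lower. The methods and the primer names give different gene numbers for actin, *POX09248* and *POX09428*, so both were used. *POX09428* had 2296 to 2411 FPKM in Δ*PoxMKK1* and 2395 to 2706 in Δ*PoxKu70*, and *POX09248* had 26.2 to 30.8 in Δ*PoxMKK1* and 27.6 to 30.4 in Δ*PoxKu70*. Neither was called, at log2 fold changes of -0.15 for *POX09428* and -0.07 for *POX09248*. Scaled to *POX09428*, the log2 difference was 2.38 for *Amy15A*, 1.85 for *Amy13A*, 0.04 for *POX02412* and 0.05 for *PoxAmyR*. Scaled to *POX09248*, it was 2.30 for *Amy15A*, 1.77 for *Amy13A*, -0.04 for *POX02412* and -0.03 for *PoxAmyR*. *Amy15A* and *Amy13A* were thus separate between the strains with either standard (two-sided exact permutation p = 0.1, the smallest possible), while the small differences of *POX02412* and *PoxAmyR* changed sign with the choice (exact p from 0.7 to 0.9). Benjamini-Hochberg adjusted values over the 4 genes of a standard were 0.2 for *Amy15A* and *Amy13A* and 0.9 for the other two in these exact tests.

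The amylase genes were set beside 6 other genes with an enzyme family or module of starch or glycogen. The study picked these 6 genes, as well as *Amy15A* and *Amy13A*, as differentially expressed in these libraries, so their calls are not independent evidence. Of the 6 genes, 2 were called higher and 4 lower in Δ*PoxMKK1*, with a median log2 fold change of -1.21. With the amylase genes and *PoxAmyR* added, 4 of the 10 genes were higher, 4 were lower and 2 were not called. Their median was -0.11, against 0.01 over all tested genes.

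The higher ones, as *Amy15A* and *Amy13A*, have families or modules known from starch breakdown, though a family alone does not show the substrate. *POX08813* has an AA13 domain, the family of lytic starch monooxygenases, and a CBM20 module. Its FPKM was 64.2, 88.8 and 105 in Δ*PoxMKK1*, against 11.6, 13.1 and 12.0 in Δ*PoxKu70*. The groups did not overlap, and the log2 fold change was 2.75 (SE 0.19, adjusted p = 7.99e-05 in edgeR's quasi-likelihood test). In Δ*PoxMKK1* its replicates had the same order as those of *Amy15A*, but in Δ*PoxKu70* replicate T was not its highest. *POX03889*, of family GH31, which includes α-glucosidases, had 43.5, 46.9 and 59.4 FPKM in Δ*PoxMKK1* and 18.7, 19.2 and 25.1 in Δ*PoxKu70*. Again the groups did not overlap, with a log2 fold change of 1.19 (SE 0.16, adjusted p = 0.00106 in edgeR's test). Its number is next to that of *PoxAmyR*, whose level did not pass the test.

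Of the 4 lower ones, 3 have families or a module known from glycogen metabolism, and the fourth has the broad family GH13. *POX06500*, of family GT35, which holds the glycogen phosphorylases, had 139, 125 and 103 FPKM in Δ*PoxMKK1*, against 461, 493 and 274 in Δ*PoxKu70*. *POX01831*, of families GT3 and GT5, which hold glycogen synthases, had 74.0, 74.9 and 76.5 FPKM in Δ*PoxMKK1* and 167, 204 and 142 in Δ*PoxKu70*. The strains were separate for both genes, and the log2 fold change was -1.81 for *POX06500* (SE 0.26, adjusted p = 0.00152 in edgeR's test) and -1.25 for *POX01831* (SE 0.15, adjusted p = 0.000752). *POX00347* has a CBM21 module, which binds starch and glycogen and in yeast occurs in subunits of a phosphatase of glycogen synthase. It had 59.6, 56.3 and 69.5 FPKM in Δ*PoxMKK1* and 117, 158 and 122 in Δ*PoxKu70*, at a log2 fold change of -1.16 (SE 0.15, adjusted p = 0.00105 in edgeR's test). *POX03741*, of the same family GH13 as *Amy13A* but without a listed CBM20 module, was lower where *Amy13A* was higher. The family alone does not show whether *POX03741* acts on starch or on glycogen. It had 13.4, 16.9 and 20.2 FPKM in Δ*PoxMKK1* and 33.1, 46.9 and 42.3 in Δ*PoxKu70*, at a log2 fold change of -1.34 (SE 0.18, adjusted p = 0.00123 in edgeR's test). Genes of these families outside the study's list were not counted.

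Several regulators and conidiation genes moved with the strain, and their part in the amylase results was not tested. *PoxClrB*, the zinc cluster activator of cellulase genes, had 31.7 to 40.6 FPKM in Δ*PoxMKK1* and 71.5 to 101 in Δ*PoxKu70*, at a log2 fold change of -1.40 (adjusted p = 0.000786 in edgeR's test). *PoxCxrB*, a zinc finger regulator of polysaccharide-degrading enzymes in this species, had 29.5 to 78.4 FPKM in Δ*PoxMKK1* and 146 to 265 in Δ*PoxKu70*, at a log2 fold change of -1.97 (adjusted p = 0.00522). Both regulators were thus called lower, and *PoxAmyR* was not called. The study cites earlier work in which PoxCxrB controls *amyR* expression and, through it, the transcripts of major amylase genes. Whether this link holds in these libraries was not tested. All 3 conidiation genes considered were higher. *PoxBrlA*, the gene of the central activator of conidiation, had 379 to 460 FPKM in Δ*PoxMKK1* and 5.38 to 42.2 in Δ*PoxKu70*, at a log2 fold change of 3.95 (adjusted p = 0.00302 in edgeR's test). *PoxAbaA*, which acts after it, had 87.8 to 105 FPKM in Δ*PoxMKK1* and 3.32 to 4.40 in Δ*PoxKu70*. *PoxFlbD*, which acts upstream, had 415 to 510 FPKM in Δ*PoxMKK1* and 117 to 211 in Δ*PoxKu70*. Their log2 fold changes were 4.55 for *PoxAbaA* (adjusted p = 5.29e-06 in edgeR's test) and 1.42 for *PoxFlbD* (adjusted p = 0.00178). The mycelium of Δ*PoxMKK1* thus differed in developmental transcripts as well as in amylase transcripts.

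**Figure D3:**
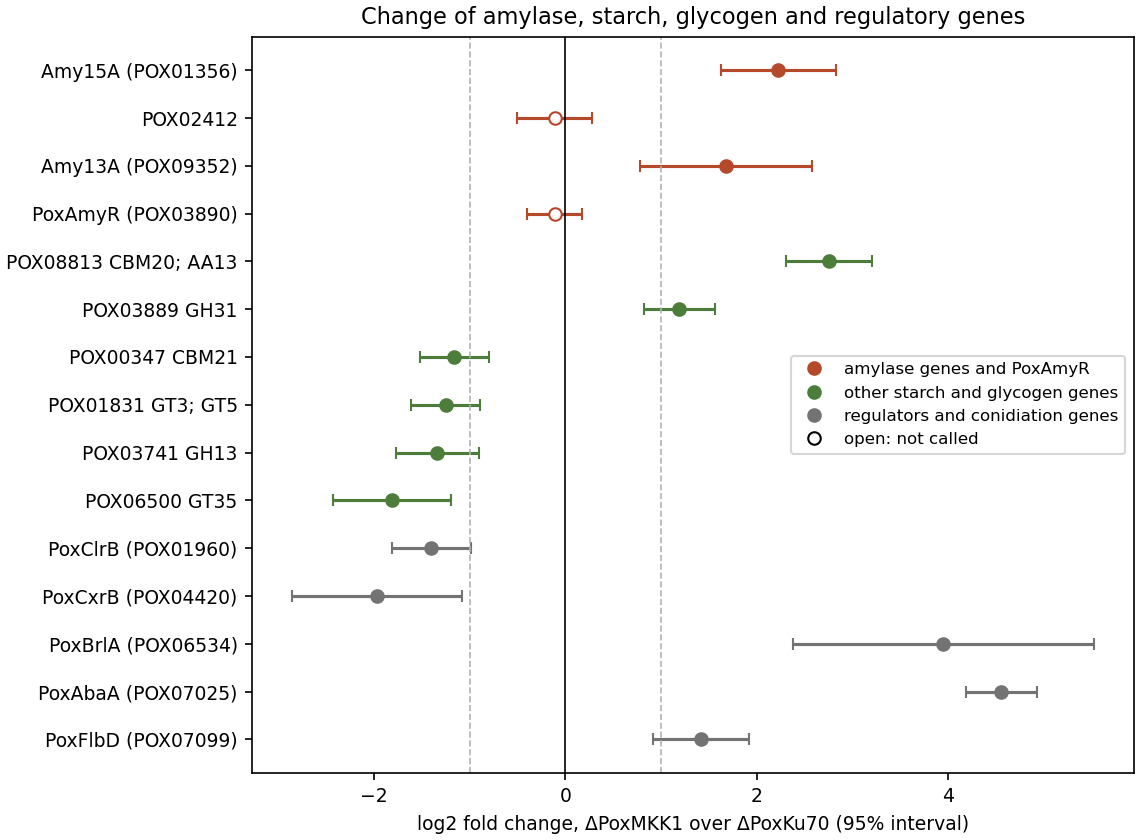
Log2 fold change of Δ*PoxMKK1* over Δ*PoxKu70* by edgeR (horizontal axis), with its 95% interval, for the amylase genes and *PoxAmyR* (red), the other starch and glycogen genes (green) and the regulators and conidiation genes (grey), filled where called and open where not, with dashed lines at the fold minimum. *Amy15A* (2.23) and *Amy13A* (1.68) lie with *POX08813* and *POX03889* on the right, *POX02412* and *PoxAmyR* (both -0.11) at the centre, and the other 4 starch and glycogen genes on the left.

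The genes whose profile over the 6 libraries was most like each of the 4 were found among the 7025 genes whose mean FPKM reached 10. The 4 genes themselves were left out of this search, so they could not appear as each other's nearest genes. Likeness was measured as the root-mean-square difference between profiles of log2(FPKM + 0.5) centred on their means. For *Amy15A* these were *POX06608*, which has a CRAL-TRIO lipid-binding domain, and *POX00142* and *POX00112*, which have no annotation in the sources used here. Their differences were 0.17, 0.18 and 0.18 on the log2 scale, against a median of 1.16 over all those genes. The profiles span both strains, so a gene with a large change between them lies far from most genes by this measure. The distance from the median is thus not separate from the call of *Amy15A*. *POX06608* had 168 to 241 FPKM in Δ*PoxMKK1* and 34.1 to 55.8 in Δ*PoxKu70*, a similar fold at a lower level. For *Amy13A* they were *POX08786*, *POX09408* and *POX04050*, at 0.20, 0.22 and 0.23 on the log2 scale. *POX08786* has domains of the glycine cleavage system P protein and *POX04050* those of a branched-chain aminotransferase. *POX09408* has no annotation in the sources used here. None of the other genes of the starch and glycogen list was among the nearest 3 of *Amy15A* or *Amy13A*. With only 3 places among so many genes, this absence says little.

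*POX02412* and *PoxAmyR* had closer neighbours, and their medians over all those genes were smaller too. For *POX02412* they were *POX03165*, *POX04300* and *POX05538* at 0.06, 0.07 and 0.07 on the log2 scale, against a median of 0.31. For *PoxAmyR* they were *POX02014*, *POX04555* and *POX03219* at 0.04, 0.04 and 0.05, against a median of 0.28. These are descriptions over 6 libraries of 2 strains, chosen from many genes.

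The calls of the 4 genes were recomputed under 19 other settings. *Amy15A* was called in all 19, with log2 fold changes from 2.03 to 2.44. *Amy13A* was called in 18 of 19, with 1.38 to 2.10, the exception being the threshold of 0.01 on the adjusted p. *POX02412* (-0.25 to 0.02) and *PoxAmyR* (-0.22 to 0.01) were called in none. The spread of these values came mainly from leaving out single libraries. With all 6 libraries kept, tools, scalings, filters and pseudocounts gave 2.19 to 2.29 for *Amy15A*, 1.65 to 1.76 for *Amy13A*, -0.14 to -0.05 for *POX02412* and -0.15 to -0.04 for *PoxAmyR*. The split between the 2 genes that were higher and the 2 that were not called was therefore the same in every setting but one.

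**Figure D4:**
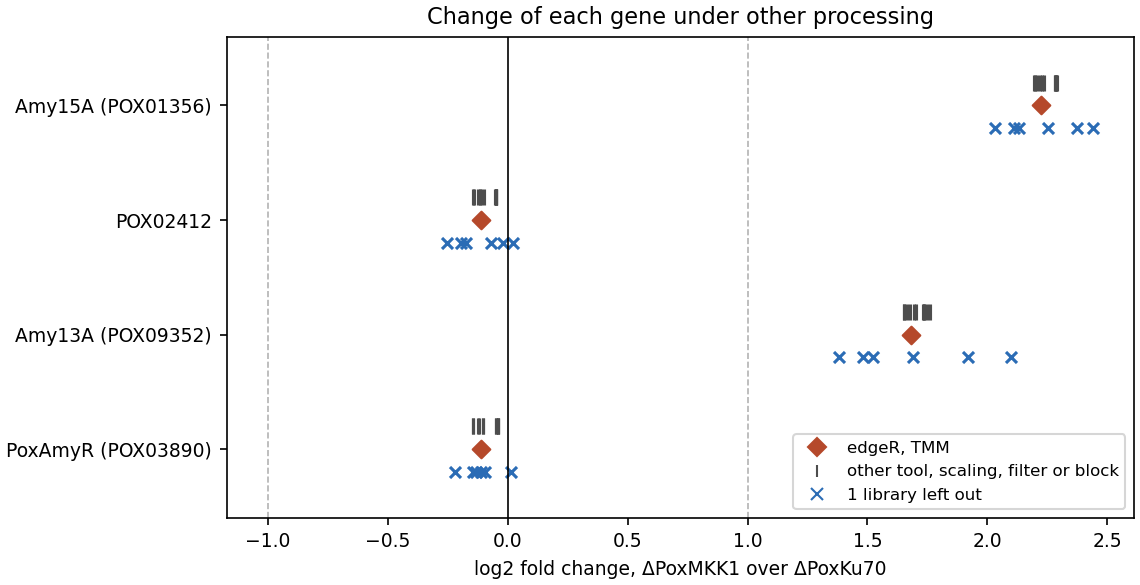
Log2 fold change of each gene (horizontal axis) in edgeR with TMM scaling (diamond), with another tool, scaling, filter or block (bars) and with 1 library left out (crosses), with dashed lines at the fold minimum. *Amy15A* stays between 2.03 and 2.44 and *Amy13A* between 1.38 and 2.10, while *POX02412* and *PoxAmyR* stay near 0.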

How the data were processed

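Libraries were made from oligo(dT)-enriched RNA, 3 a strain, described by the study as biological repeats, and sequenced on a BGISEQ-500 platform. The authors mapped their reads to the HP7-1 genome and deposited, per gene and library, an expected count (an estimated count, not normalized) and an FPKM value, scaled for length and depth. The submitters' processing notes name BWA 0.7.10-r789, Bowtie2 2.1.0, RSEM 1.2.12 and DESeq2 without their roles. Whether counting used strand is not given in the sources used here, so overlapping genes are uncertain. None of the 4 genes had a fractional count. Of the RefSeq identifiers of this strain 0 matched, so no positions or sequences are given.

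Groups and replicates were taken from the labels. The main test was edgeR 4.0.16 (R 4.3.3), applied to rounded expected counts after filterByExpr and TMM scaling, by glmQLFit and glmQLFTest with strain as the only term. SE is the absolute log2 fold change over the square root of F. The p-values set the difference between the strains against the spread between these libraries. Exact tests went through all divisions of the libraries into groups in Python 3.11.15 with numpy 2.4.6. Tables and figures were made with pandas 2.3.3 and matplotlib 3.10.9. As alternatives, DESeq2 1.42.0 replaced edgeR, or limma 3.58.1 was run on log2 FPKM with a pseudocount of 0.5, 0.1 or 1. Scaling was varied by DESeq2 size factors, by library sizes alone and by removing a trend with gene length. Filters were varied by testing every gene or only those with a mean FPKM reaching 5. The design was varied by a replicate block and by leaving out each library, and the threshold by an adjusted p below 0.01, by dropping the fold minimum, and by a probability from replicate noise (0.8 or more, an FPKM of 0 being set to 0.01). The edgeR step was tested on simulated data.

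The 4 genes, the gene lists and the tests were chosen with earlier results of these data known. Genes named are these 4, the starch and glycogen list (families GH13, GH15, GH31, AA13, CBM20, CBM21, GT3, GT5 and GT35 among the genes listed by the study), 2 regulators, 3 conidiation genes, *PoxMKK1*, actin, called genes within 3 gene numbers of the 4, and the 3 genes most like each of the 4. *POX01583* was added after its values were seen. The authors' table of differentially expressed genes gave the gene families and domains, and it limited the starch and glycogen list to genes that it holds. The fold changes printed in it were not used.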

Additional observations from a re-analysis of the deposited data

How the results depend on the processing

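*Amy15A* kept its call under all 19 alternatives, and *Amy13A* lost it only at an adjusted p below 0.01 (log2 fold change 1.68, adjusted p = 0.0106 in edgeR's quasi-likelihood test), which left 1 of the 4 genes called. Leaving out replicate T of Δ*PoxKu70* gave *POX02412* a log2 fold change of 0.0241, and leaving out replicate F of that strain gave *PoxAmyR* one of 0.0129. The log2 difference in the ratio of *POX02412* to *PoxAmyR* was 0.0105 and 0.0862 without replicates F and S of Δ*PoxMKK1* and 0.2252 with replicate T of Δ*PoxKu70* left out. With *POX09248* as actin, *POX02412* gave -0.0396 and *PoxAmyR* -0.0322, both opposite in sign to *POX09428*. The cause was not tested for any of these. Without a fold minimum, 4044 genes were called in all and 12 near the 4 genes by number, and the replicate-noise probability called 1119 genes.

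With 1 library left out, the log2 fold change was 2.03 to 2.44 for *Amy15A*, 1.38 to 2.10 for *Amy13A* (highest adjusted p 0.0347 in edgeR's test), -0.25 to 0.02 for *POX02412* and -0.22 to 0.01 for *PoxAmyR*. The number called was 2 of 4 throughout, 8 in the starch and glycogen list, 5 to 7 near the 4 genes by number and 1573 to 1865 in all. The log2 difference in ratio was 2.26 to 2.47 for *Amy15A* to *POX02412*, 0.38 to 0.64 for *Amy15A* to *Amy13A*, 2.13 to 2.63 for *Amy15A* to *PoxAmyR*, -2.07 to -1.66 for *POX02412* to *Amy13A*, -0.18 to 0.23 for *POX02412* to *PoxAmyR* and 1.48 to 2.24 for *Amy13A* to *PoxAmyR*. A strain left with 2 libraries shares the spread estimated over both.

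The replicate letters are not stated to pair the libraries, and deviations from the strain means correlated at 0.381 (F), 0.0291 (S) and 0.155 (T) over 7851 genes, so not every letter passed 0.1. Replicate T of Δ*PoxMKK1* correlated best with replicate S of Δ*PoxKu70* (0.184). With the replicate block 1739 genes were called, the log2 fold change was 2.23 for *Amy15A*, 1.70 for *Amy13A*, -0.11 for *POX02412* and -0.10 for *PoxAmyR*, and no call among the 4 changed. The limits are 3 libraries a strain, 1 time and 1 substrate, and ratios and shares were tested only by an exact permutation test, which cannot go below 0.1 here.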

Other observations

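The numbers of the genes next to the 4 were also looked up, within 3 numbers on either side, without a map to show whether these genes lie side by side. Of these 24 genes 20 were tested, and 7 of them were called, 4 higher and 3 lower in Δ*PoxMKK1*, where 19.8% of all tested genes were called. Near *Amy13A*, *POX09355*, with cytochrome P450 domains, had 9.95, 10.3 and 12.4 FPKM in Δ*PoxMKK1*, against 444, 598 and 247 in Δ*PoxKu70*, at a log2 fold change of -5.37 (SE 0.37, adjusted p = 8.03e-05 in edgeR's quasi-likelihood test). *POX09354*, which has no annotation in the sources used here, had 1.44, 1.79 and 2.70 FPKM in Δ*PoxMKK1* and 116, 168 and 76.9 in Δ*PoxKu70*, at a log2 fold change of -5.99. Both moved opposite to *Amy13A*, and both had their lowest control library in replicate T, where *Amy13A* had its highest. *POX09351*, with domains of the zinc alcohol dehydrogenase family, was higher, at 25.4 to 37.6 FPKM in Δ*PoxMKK1* and 7.07 to 12.5 in Δ*PoxKu70* (log2 fold change 1.67).

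Near *POX02412*, which was not called, *POX02414* had 389 to 510 FPKM in Δ*PoxMKK1* and 26.5 to 125 in Δ*PoxKu70* (log2 fold change 2.40), and *POX02415*, with amino acid permease domains, had 33.1 to 65.2 in Δ*PoxMKK1* and 4.33 to 21.1 in Δ*PoxKu70* (log2 fold change 1.95). Near *Amy15A* the called gene was *POX01358*, which rests on 4 to 15 counts in Δ*PoxMKK1* and 16 to 42 in Δ*PoxKu70* (log2 fold change -1.75). Near *PoxAmyR* it was *POX03889*, the GH31 gene. The number of called genes near the 4 depended on the fold minimum and on single libraries.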
